A study of Rattus norvegicus with 40 samples.

Results

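The tubular injury genes described here are 8 genes that kidney epithelium is known to switch on or raise when it is damaged: Havcr1, Lcn2, Spp1, Clu, C3, Krt19, Vim and Cd24. They were picked by symbol in the gene tables, where each stood on 1 gene model of 31677, of which 14949 carry a symbol. RNA sequencing covered 40 libraries of T cells taken from the kidney or from the blood of SS rats, the Dahl salt-sensitive strain in which dietary salt raises blood pressure and damages the kidney. Rats came in 2 types, named SS/CRL and SS/MCW in the labels, and either received high-salt chow (HS) for 3 weeks or stayed on low-salt chow (LS). The 5 groups of rats were SS/CRL on HS at 10 weeks of age, SS/CRL on LS at 10 weeks, SS/MCW on HS at 10 weeks, SS/MCW on LS at 10 weeks and SS/MCW on LS at 7 weeks. Each gave a kidney group and a circulating group of 4 libraries, and each library pooled 3 rats.

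As background, an injured tubule cell loses its transporters, sheds or secretes proteins that reach the urine, and takes on cytoskeletal and surface proteins of a simpler, migrating cell. Havcr1 (KIM-1) and Lcn2 (NGAL) are the widely used urinary markers of this state, Spp1, Clu and C3 are secreted proteins, and Krt19, Vim and Cd24 mark the altered cell itself. Several of these genes also have a life in blood cells, which matters in T cell preparations. Vim is abundant in lymphocytes, Cd24 is a surface protein of B cells, Clu is stored in platelets, Lcn2 sits in neutrophil granules, and Havcr1 is known as TIM-1 on lymphocytes.

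Expression is in FPKM, fragments per kilobase of transcript scaled to the size of the library, with 1 value per group computed by the authors. A group occurs in several of the 15 deposited tables, and its values there differed by at most 1.15-fold, so levels are given as the median over tables. The libraries' own values are not used here, and a level therefore stands without a spread. Library depth is unknown. A change was called where the authors' deposited q-value, adjusted over all gene models of a table, was under 0.05. Comparisons that share a group, such as HS over LS and SS/CRL over SS/MCW, share its libraries and are not independent.

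The kidney preparations held RNA of several kidney cell types beside T cells. The summed FPKM of 17 T cell identity genes was 283 to 1041 in the 5 kidney groups, against 4917 to 6302 in the 5 circulating groups, with none of the 17 listed at 0. The sum of 19 proximal tubule markers was 3618 to 13858 in kidney groups, led by Miox, Aqp1 and Slc34a1, against 2.65 to 3.73 in circulating groups. Markers of the thick limb, distal tubule and collecting duct, 19 genes led by Umod, summed to 2608 to 18235 in kidney groups, against 6.43 to 9.08 in circulating groups. In such bulk values, more cells of a type and more RNA per cell cannot be told apart.

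Lcn2, Havcr1 and C3 carried 6 of the 9 called differences between kidney groups, C3 no more of them than Krt19, Vim or Cd24. The promoters of these 3 genes are shown as examples. Each runs 5′ to 3′ from 250 bases before to 50 bases after the gene's start, as given by RefSeq on build GRCr8, at chr3:36081731-36082030 on the minus strand for Lcn2, chr10:31629528-31629827 on the plus strand for Havcr1 and chr9:2201290-2201589 on the minus strand for C3. Capitals mark GGG and CC set apart by 5 bases of any kind, a pattern bound by NF-kB, or TTGCNNAA, a pattern bound by C/EBP proteins, read on either strand.
Lcn2: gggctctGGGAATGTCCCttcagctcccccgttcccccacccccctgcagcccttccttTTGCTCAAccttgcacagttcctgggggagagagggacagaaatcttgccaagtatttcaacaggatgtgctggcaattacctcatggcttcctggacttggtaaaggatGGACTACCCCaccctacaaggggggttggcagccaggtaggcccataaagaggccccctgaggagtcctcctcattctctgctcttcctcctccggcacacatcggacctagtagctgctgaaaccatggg
Havcr1: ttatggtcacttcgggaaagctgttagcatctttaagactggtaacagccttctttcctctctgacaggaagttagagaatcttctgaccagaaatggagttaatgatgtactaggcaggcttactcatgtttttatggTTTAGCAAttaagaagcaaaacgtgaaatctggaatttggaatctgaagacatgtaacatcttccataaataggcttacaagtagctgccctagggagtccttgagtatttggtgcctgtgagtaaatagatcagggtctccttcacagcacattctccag
C3: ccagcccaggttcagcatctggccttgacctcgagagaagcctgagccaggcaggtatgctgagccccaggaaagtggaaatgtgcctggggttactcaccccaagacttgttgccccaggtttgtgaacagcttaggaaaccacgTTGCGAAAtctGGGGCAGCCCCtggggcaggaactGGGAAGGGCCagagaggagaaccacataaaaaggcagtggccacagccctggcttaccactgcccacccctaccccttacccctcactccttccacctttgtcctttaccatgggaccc
Lcn2 held NF-kB letters beginning 243, 242 and 81 bases before the start, the first of which overlap, and C/EBP letters 191 bases before it. C3 held NF-kB letters 93, 92 and 69 bases before the start, the first of which also overlap, and C/EBP letters 104 bases before it. Havcr1 held C/EBP letters 111 bases before the start and no match to the NF-kB letters. Of 33469 rat promoters of this length, 47.3% hold the NF-kB letters and 10.6% the C/EBP letters, so a match is a description of the sequence only. RefSeq promoters were found for 6 of the 8 genes, and none of the 6 held TGANTCA, an AP-1 pattern present in 7.33% of promoters, or TTCNNNGAA, a STAT pattern present in 8.87%. The promoters of Vim, Spp1 and Cd24, not shown, held no C/EBP letters, and those of Vim and Cd24 held NF-kB letters.

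Compared between tissues of the same group of rats, 7 of the 8 genes had higher values in every kidney group than in its circulating group, and Vim was the exception. Of 40 comparisons of a gene between kidney and circulating cells, 29 were called higher in kidney and 3 lower by the authors' q-values. The counts of genes called higher were 5 of 8 in SS/CRL on HS, where 30.6% of all tested gene models were, 5 of 8 in SS/CRL on LS (31.5%), 6 of 8 in SS/MCW on HS (30.6%), 6 of 8 in SS/MCW on LS at 10 weeks (26.6%) and 7 of 8 in SS/MCW on LS at 7 weeks (32.9%). Havcr1, Clu, Cd24 and C3 were called higher in kidney cells in all 5 comparisons. The median log2 fold change of the 6 to 8 genes with a value above 0 in both tissues lay between 5.33 and 8.07 over the 5 comparisons, against 0.20 to 0.44 for all tested gene models.

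**Figure D1:**
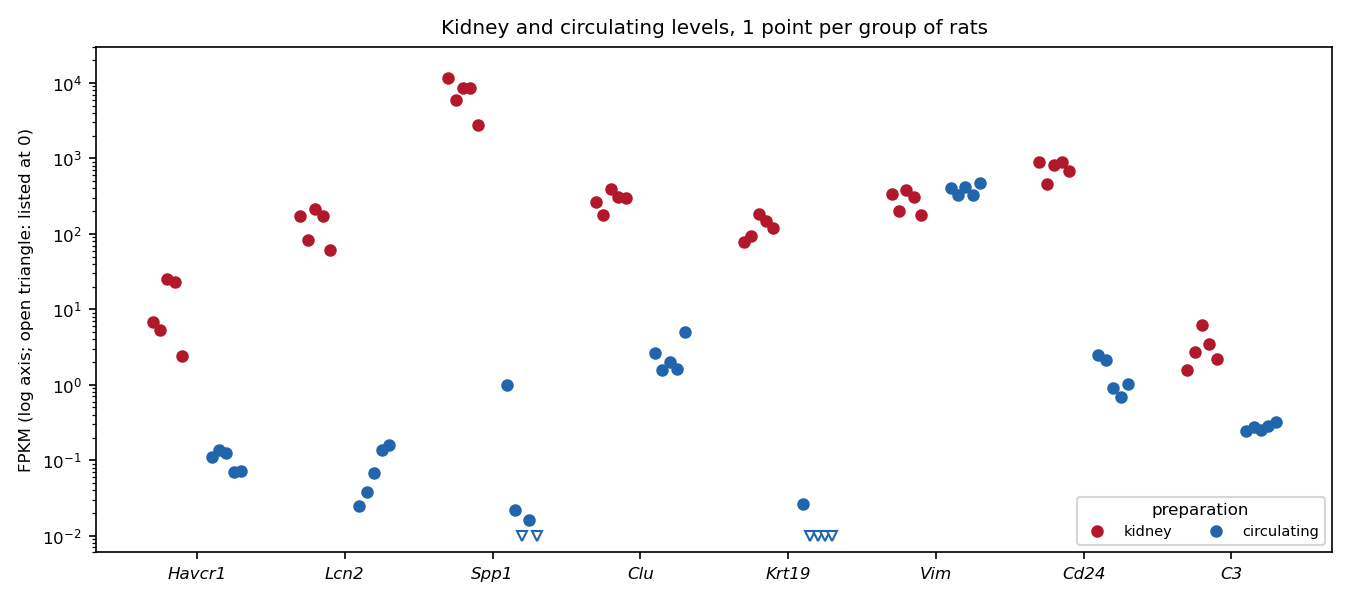
FPKM of each gene on a log axis in kidney (red) and circulating (blue) preparations, 1 point per group of rats in the order SS/CRL HS, SS/CRL LS, SS/MCW HS, SS/MCW LS at 10 weeks and SS/MCW LS at 7 weeks, each the median over deposited tables; open triangles are groups listed at 0. Kidney values lie above circulating ones for every gene but Vim, whose circulating values of 324 to 467 FPKM exceed the kidney value of the same group.

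The size of the gap differed among the genes. Clu, a secreted chaperone, was 54.8-fold to 160-fold higher in kidney than in circulating cells, and Cd24, a small glycoprotein anchored to the surface by a lipid, was 179-fold to 1065-fold higher. C3, the central complement component, had the narrowest gap of the 7 genes higher in kidney, 5.32-fold to 20.1-fold. Havcr1 was 29.6-fold to 268-fold higher in kidney cells, against circulating levels of only 0.0689 to 0.137 FPKM. With a pseudocount of 1 FPKM these ranges were 3.03-fold to 20.5-fold for Havcr1, 1.92-fold to 5.19-fold for C3, 125-fold to 462-fold for Cd24 and 46.1-fold to 110.3-fold for Clu. Krt19, a keratin of simple epithelia, was listed at 0 in circulating cells of every group but SS/CRL on HS, which had 0.0263 FPKM.

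A very large gap was not always called. Lcn2 had 152 FPKM in kidney cells and 0.0272 FPKM in circulating cells of SS/CRL rats on HS, with q = 0.238 in the authors' deposited table. Spp1 had 7758 FPKM in kidney cells and 0.0177 FPKM in circulating cells of SS/MCW rats on LS at 10 weeks, with q = 0.149 there. The remaining 4 uncalled differences, of Lcn2, Spp1 and Krt19, had circulating values of 0.0240 to 0.0740 FPKM. With the p from the normal distribution of the statistic, 3 of these 6 passed, namely Spp1 in both LS groups at 10 weeks and Lcn2 in SS/MCW on HS.

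Vim, the intermediate filament protein of mesenchymal cells and leukocytes, ran the other way. It had 302 FPKM in kidney cells and 453 FPKM in circulating cells of SS/CRL rats on HS, a log2 fold change of -0.58 (q = 0.00212, authors' deposited table). The same comparison gave 181 FPKM in kidney cells and 356 FPKM in circulating cells of SS/CRL on LS, a log2 fold change of -0.97, and 168 FPKM in kidney cells and 491 FPKM in circulating cells of SS/MCW on LS at 7 weeks, a log2 fold change of -1.55, both called lower in kidney (q = 0.000146 and 0.000141). In SS/MCW rats at 10 weeks the log2 fold change was -0.43 on HS (q = 0.156) and -0.40 on LS (q = 0.313), neither called. The share of all tested gene models called lower was 20.3% in SS/CRL on HS, 22% in SS/CRL on LS, 18.4% in SS/MCW on HS, 17% in SS/MCW on LS at 10 weeks and 23.9% at 7 weeks. Gene models above 5 FPKM in kidney and blood alike had a median log2 fold change of -0.15 to -0.23, and relative to that median Vim was still lower in all 5 comparisons. With p taken from the normal distribution of the statistic, 2 of the 3 calls of Vim passed, and with both that p and recentring 1 passed, at 7 weeks with -1.32.

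Between kidney groups, 9 of 40 comparisons of a gene were called. The 3 calls within SS/CRL rats on the change of chow, and both calls with age, were rises, and all 4 calls between rat types were lower values in SS/CRL. No gene was called in more than 3 of the 5 comparisons, and Spp1 and Clu were called in none. These calls rest on the authors' p-values, the smallest of which was 5e-05. When p was taken instead from the normal distribution of the authors' statistic and adjusted over all gene models, 0 of the 9 passed.

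**Figure D2:**
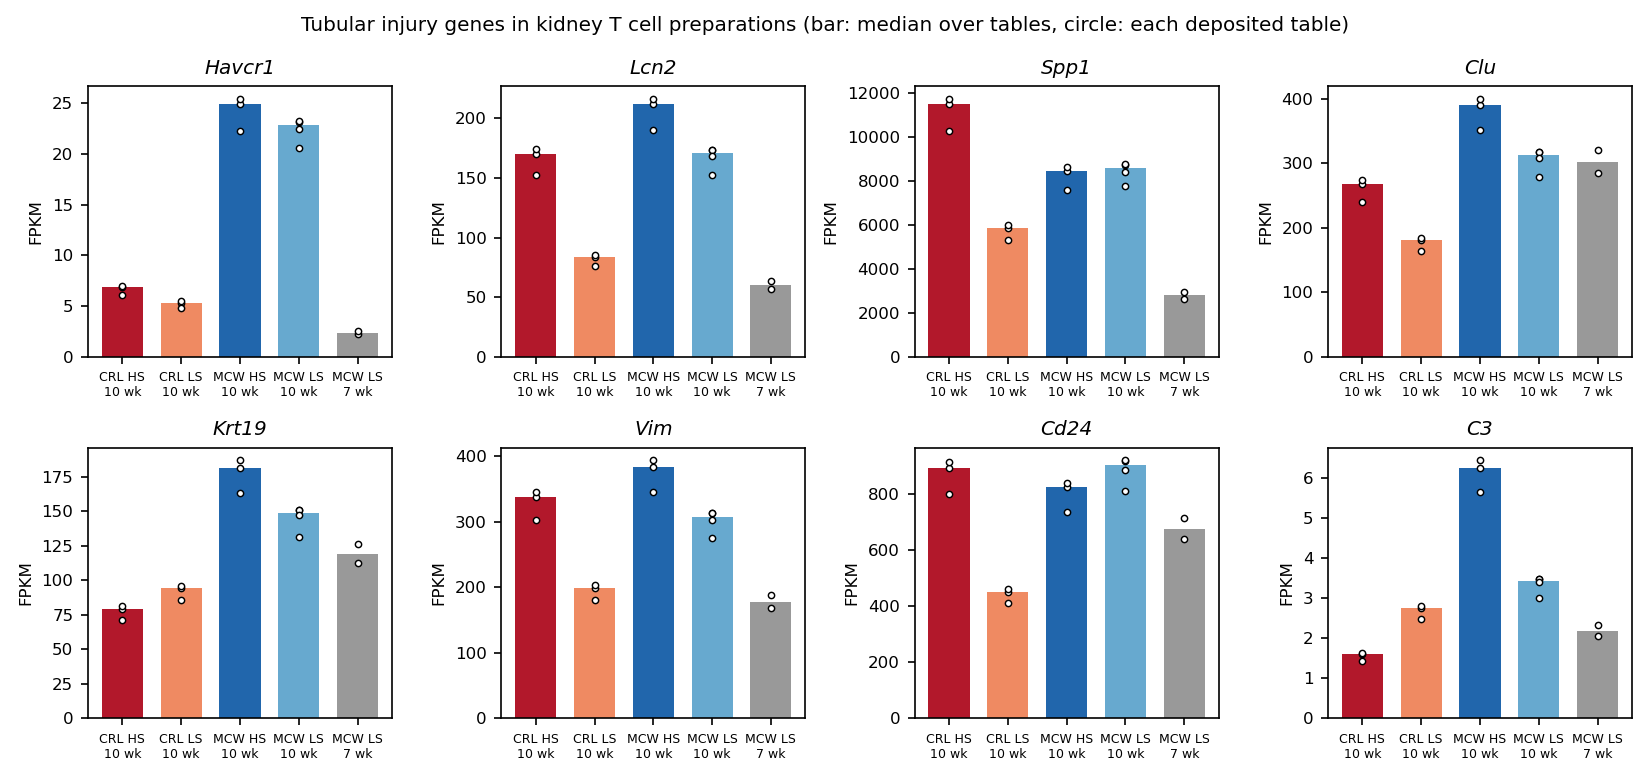
FPKM of the 8 genes in the 5 kidney groups. Bars are medians over the deposited tables that hold the group and circles the value in each table, which repeat the same 4 libraries and are not replicates. Havcr1 stands out with 22.8 to 25.0 FPKM in both SS/MCW groups at 10 weeks and 2.40 to 6.84 FPKM in the other 3 groups.

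Havcr1 (chr10:31644751-31668392, rn5), a receptor through which injured proximal tubule cells take up dying neighbours, varied most of the 8 genes. Its kidney level was 6.84 FPKM in SS/CRL on HS, 5.36 in SS/CRL on LS, 25.0 in SS/MCW on HS, 22.8 in SS/MCW on LS at 10 weeks and 2.40 in SS/MCW on LS at 7 weeks, a range of 10.4-fold. Both SS/MCW groups at 10 weeks were high and the other 3 groups low. The log2 fold change was 3.20 for 10 over 7 weeks in SS/MCW rats on LS, with an implied standard error (the fold change divided by the deposited statistic) of 0.88 and q = 0.00983 in the authors' deposited table. It was -2.07 for SS/CRL over SS/MCW on LS (standard error 0.82, q = 0.00524) and -1.87 on HS (standard error 0.63, q = 0.00149). High salt gave 0.32 in SS/CRL and 0.10 in SS/MCW, neither called (q = 0.703 and 0.9996).

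The proximal tubule marker sum did not follow the same order as Havcr1. It was 8707 in SS/CRL on HS, 13858 in SS/CRL on LS, 3980 in SS/MCW on HS, 6722 in SS/MCW on LS at 10 weeks and 3618 at 7 weeks. In the comparisons of rat types, 7 of the 19 proximal tubule markers were called higher and 0 lower in SS/CRL on HS, and 5 higher and 0 lower on LS, while Havcr1 was lower in both. Set against that sum, Havcr1 was 0.0786% in SS/CRL on HS, 0.0387% in SS/CRL on LS, 0.628% in SS/MCW on HS, 0.340% in SS/MCW on LS at 10 weeks and 0.0662% at 7 weeks. Both SS/MCW groups at 10 weeks were the highest per unit of proximal tubule marker RNA. Other denominators gave other orders. Set against the thick limb and distal sum, both SS/MCW groups at 10 weeks were again highest, at 0.287% on HS and 0.364% on LS. The other groups had 0.0131% to 0.205%. Set against the T cell identity sum, Havcr1 was 2.41% in SS/CRL on HS and 2.40% in SS/MCW on HS, and against the macrophage sum 1.76% in SS/CRL on HS and 1.64% in SS/MCW on HS. On HS 14 of 17 T cell identity genes and 8 of 10 macrophage and monocyte markers were called lower in SS/CRL beside Havcr1, and on LS 1 of 16 and 2 of 9 were. On LS Havcr1 was 1.45% of the T cell sum in SS/CRL and 3.75% in SS/MCW. Of the macrophage sum it was 0.989% in SS/CRL and 2.96% in SS/MCW on LS at 10 weeks. The part of these cells in the Havcr1 difference was not tested.

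**Figure D3:**
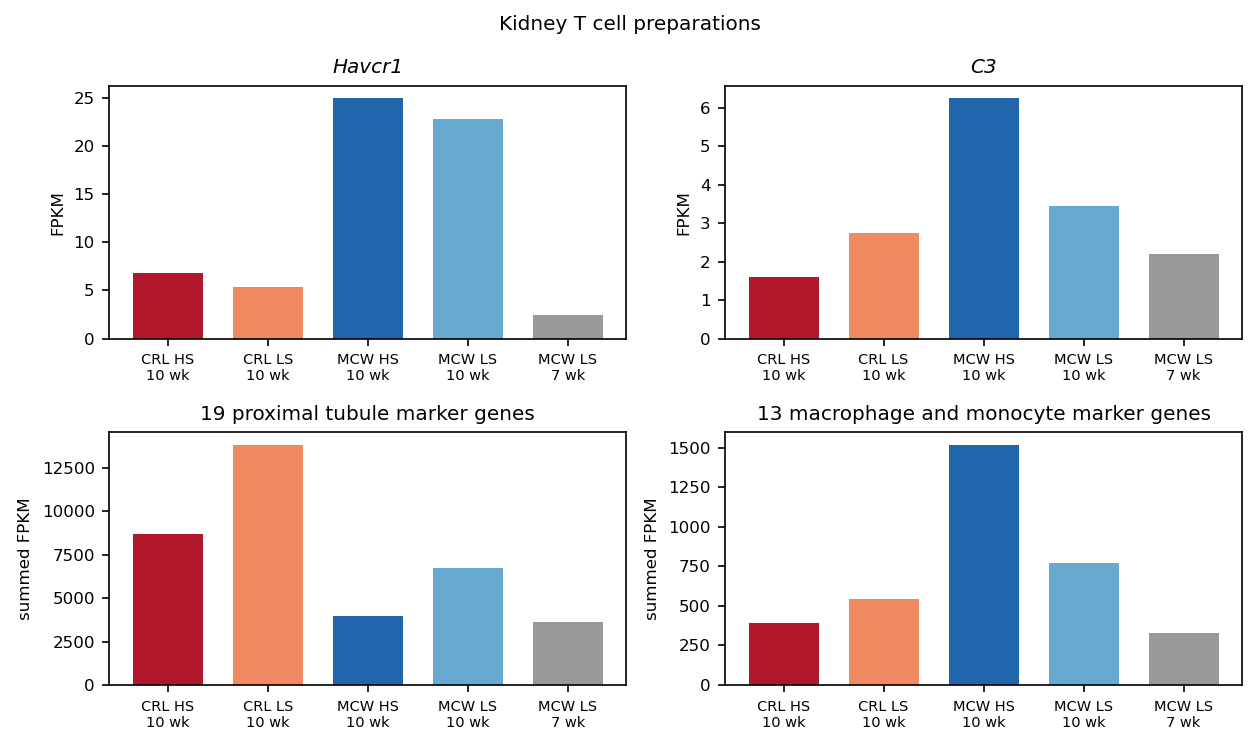
Havcr1 and C3 FPKM in the 5 kidney groups (top) above the summed FPKM of 19 proximal tubule markers and of 13 macrophage and monocyte markers (bottom), medians over tables. The Havcr1 and proximal tubule bars are ordered differently, while C3 and the macrophage sum both peak in SS/MCW on HS at 6.25 and 1521 FPKM.

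Lcn2 (chr3:16763058-16766585), which encodes a protein that binds bacterial iron carriers, was the other gene that rose with age. Its kidney level was 170.2 FPKM in SS/CRL on HS, 83.8 in SS/CRL on LS, 212 in SS/MCW on HS, 171 in SS/MCW on LS at 10 weeks and 60.5 at 7 weeks. The youngest rats were lowest, followed by SS/CRL on LS. The log2 fold change was 1.44 for 10 over 7 weeks (standard error 0.63, q = 0.00983, authors' deposited table) and 0.99 for HS over LS in SS/CRL (standard error 0.43, q = 0.00171). The summed thick limb and distal markers were 6369 FPKM at 10 weeks and 19307 at 7 weeks in that table. In the salt comparison of SS/CRL they were 3750 FPKM on HS and 2660 on LS. For SS/CRL over SS/MCW on LS the log2 fold change was -1.003 with q = 0.0790, which was not called. Of the thick limb and distal sum at 7 weeks, as a median over tables, Umod alone was 13662 of 18235 FPKM. Neutrophil markers, 9 matched of 12, summed to 5.10 to 14.8 FPKM in kidney groups. The part of these cell types in the Lcn2 values was not tested.

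Spp1 (chr14:6653092-6658953), encoding osteopontin, a secreted phosphoprotein that binds integrins and CD44, had the highest levels of the 8 genes. Its kidney level was 11493 FPKM in SS/CRL on HS, 5863 in SS/CRL on LS, 8480 in SS/MCW on HS, 8594 in SS/MCW on LS at 10 weeks and 2814 at 7 weeks. It was the most abundant of all 31677 gene models in SS/CRL on HS and ranked no lower than 8 in any kidney group. Its largest log2 fold changes were 1.56 for 10 over 7 weeks and 0.94 for HS over LS in SS/CRL, with implied standard errors of 1.86 and 1.74 (q = 0.794 and 0.688, authors' deposited tables). Those standard errors were the largest of the 8 genes in both comparisons, and a 2.94-fold difference in Spp1 with age was not called while a 2.71-fold difference in Lcn2 was.

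Clu (chr15:48926515-48939266) had a kidney level of 267 FPKM in SS/CRL on HS, 180 in SS/CRL on LS, 389 in SS/MCW on HS, 313 in SS/MCW on LS at 10 weeks and 302 at 7 weeks. The SS/CRL groups were lower than the SS/MCW groups. The difference was not called on HS (log2 fold change -0.55, q = 0.284) or on LS (-0.77, q = 0.360), nor was HS over LS in SS/CRL (0.54, q = 0.114), by the authors' deposited tables. With age the log2 fold change was -0.01 (standard error 0.65).

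C3 (chr9:8728464-8754412) was the gene with the lowest kidney levels. It had 1.59 FPKM in SS/CRL on HS, 2.74 in SS/CRL on LS, 6.25 in SS/MCW on HS, 3.44 in SS/MCW on LS at 10 weeks and 2.19 at 7 weeks. The SS/MCW group on HS was highest and the SS/CRL group on HS lowest. The log2 fold change for SS/CRL over SS/MCW on HS was -1.97 (standard error 0.72, q = 0.00149, authors' deposited table). In the same comparison 8 of 10 tested macrophage and monocyte markers were called lower, with a sum of 399 FPKM in SS/CRL and 1571 in SS/MCW, and 14 of 17 T cell identity genes were called lower. C3 equalled 0.409% of the macrophage sum in SS/CRL on HS, 0.506% in SS/CRL on LS, 0.411% in SS/MCW on HS, 0.446% in SS/MCW on LS at 10 weeks and 0.671% at 7 weeks, with the lowest ratios in the 2 groups on HS. The part of these cells in the C3 difference was not tested.

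Salt gave C3 opposite signs in the 2 rat types, with a log2 fold change of -0.81 in SS/CRL (q = 0.309) and 0.85 in SS/MCW (q = 0.9996), neither called by the authors. The difference between the salt effects, tested by a z from the authors' fold changes and statistics, was -1.66 (standard error 1.16, p = 0.153, Benjamini-Hochberg adjusted p = 0.99999 over 16430 gene models). With standard errors derived from the p-values of the authors it had p = 0.00585 and adjusted p = 0.322. None of the 8 genes passed this test of a difference between salt effects under either kind of standard error, and 0 had p under 0.05 under the first. Under the first kind 0 of all 16430 gene models passed and 109 had p under 0.05, so the test could hardly have called any gene. Under the second kind 60 gene models passed and 1131 had p under 0.05. After C3, the largest differences between salt effects were 1.12 for Cd24 (standard error 1.18), 0.99 for Spp1 (standard error 5.08) and 0.71 for Lcn2 (standard error 0.82). The macrophage sum was 389 FPKM on HS and 552 on LS in SS/CRL, and 1521 and 779 in SS/MCW. Of tested macrophage markers 6 of 9 had higher values on HS in SS/CRL, and 9 of 10 in SS/MCW. The T cell identity sum was 284 FPKM on HS and 377 on LS in SS/CRL, and 1041 and 614 in SS/MCW. The part of these cells in the C3 salt differences was not tested.

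Krt19 (chr10:87848517-87853235) had a kidney level of 79.3 FPKM in SS/CRL on HS, 94.3 in SS/CRL on LS, 181 in SS/MCW on HS, 149 in SS/MCW on LS at 10 weeks and 119 at 7 weeks. Both SS/CRL groups were lower than all 3 SS/MCW groups. The log2 fold change for SS/CRL over SS/MCW was -1.20 on HS (standard error 0.49, q = 0.00149, authors' deposited table) and -0.64 on LS (standard error 0.68, q = 0.561). In the HS comparison 7 of 19 proximal tubule markers were called higher in SS/CRL. Of 19 thick limb and distal markers 3 were called higher and 2 lower there, and 14 of 17 T cell identity genes were called lower. The part of these cells in the Krt19 difference was not tested. Salt and age differences of Krt19 were not called.

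Vim (chr17:82500857-82509377) had a kidney level of 338 FPKM in SS/CRL on HS, 199 in SS/CRL on LS, 384 in SS/MCW on HS, 308 in SS/MCW on LS at 10 weeks and 178 at 7 weeks. It was low in the youngest rats and in SS/CRL on LS. It rose by 0.73 on the log2 scale in SS/CRL on HS over LS (standard error 0.42, q = 0.0158, authors' deposited table). The same fold change, 0.73, for 10 over 7 weeks in SS/MCW on LS had q = 0.417.

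Cd24 (chr20:49989319-49994626) had a kidney level of 894 FPKM in SS/CRL on HS, 452 in SS/CRL on LS, 825 in SS/MCW on HS, 903 in SS/MCW on LS at 10 weeks and 678 at 7 weeks. The SS/CRL group on LS was the lowest and the other groups at 10 weeks lay close together. Cd24 rose by 0.96 on the log2 scale in SS/CRL on HS over LS (standard error 0.51, q = 0.0106, authors' deposited table). The log2 fold change for SS/CRL over SS/MCW on LS was -0.97 with q = 0.518.

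**Figure D4:**
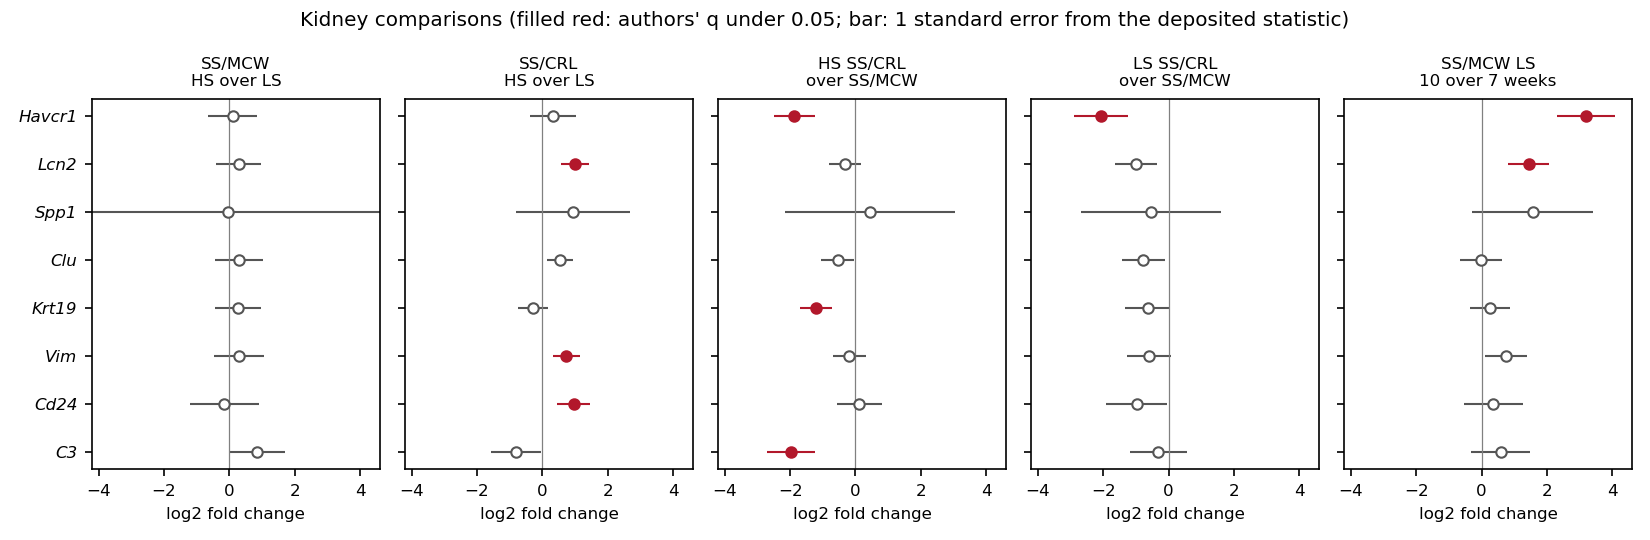
Log2 fold change of each gene in the 5 kidney comparisons, with the group named first on top of the fold change; bars are 1 standard error implied by the deposited statistic, and filled red points have an authors' q under 0.05. Calls are Lcn2, Vim and Cd24 with salt in SS/CRL, Havcr1, Krt19 and C3 between rat types on HS, Havcr1 between rat types on LS, and Havcr1 and Lcn2 with age; the Spp1 bar for salt in SS/MCW runs off the axis, at a standard error of 4.77.

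By comparison, salt within SS/CRL gave 3 of 8 genes called higher, where 2.44% of 20501 tested gene models were called higher. Their median log2 fold change was 0.64, against 0.05 for all tested gene models. In that comparison 12 of 19 proximal tubule markers were called lower and 1 higher, with a sum of 8707 FPKM on HS and 14138 on LS. Endothelial markers, cells that contain vimentin, were called higher in 5 of 12 tested, with a sum of 281 FPKM on HS and 170 on LS, and 3 of 19 thick limb and distal markers were called higher, with a sum of 3750 FPKM on HS and 2660 on LS. Erythroid markers were called lower in 3 of 6, with a sum of 685 FPKM on HS and 3115 on LS. Also called lower were 1 of 15 T cell identity genes and 1 of 9 macrophage markers. The part of these cell types in the rises of Lcn2, Vim and Cd24 was not tested.

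Salt within SS/MCW gave 0 of 8 calls by Cuffdiff, where 0.433% of 19385 gene models were called in either direction, and 0 of 8 had an unadjusted p under 0.05, against 4.27% of all gene models. The members' log2 fold changes lay between -0.16 for Cd24 and 0.85 for C3, with a median of 0.28. In that comparison 2 of 16 tested T cell identity genes were called higher, with a sum of 1041 FPKM on HS and 614 on LS. Of macrophage markers 1 of 10 was called higher, with a sum of 1521 on HS and 779 on LS. Called lower were 1 of 19 proximal tubule, 1 of 11 fibroblast and mural and 2 of 5 erythroid markers. The part of these cell types in the values of the 8 genes was not tested.

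Between rat types on LS all 8 genes had lower values in SS/CRL, with log2 fold changes of -2.07 to -0.32 and a median of -0.71, against a median of -0.01 for all tested gene models. Only Havcr1 was called, where 0.444% of 18032 gene models were called lower. In that comparison 2 of 10 fibroblast and mural markers were called lower, with a sum of 61.0 FPKM in SS/CRL and 386 in SS/MCW, as were 2 of 9 macrophage markers (541 in SS/CRL and 764 in SS/MCW) and 2 of 13 endothelial markers (166 in SS/CRL and 242 in SS/MCW). Proximal tubule markers went the other way, with 5 of 19 called higher and a sum of 13858 FPKM in SS/CRL and 6624 in SS/MCW. The part of these cell types in the values of the 8 genes on LS was not tested. On HS, 6 of the 8 genes had lower values in SS/CRL and 3 were called lower, where 2.97% of 22692 gene models were. Spp1 and Cd24 were the exceptions on HS, with log2 fold changes of 0.45 and 0.12 that were not called. The median of the 8 genes on HS was -0.43, against 0.12 for all tested gene models. There 14 of 17 T cell identity genes and 8 of 10 macrophage markers were called lower in SS/CRL. Called higher were 7 of 19 proximal tubule and 2 of 12 endothelial markers. Of 19 thick limb and distal markers 3 were called higher and 2 lower. The part of these cell types on HS was not tested.

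With age 7 of the 8 genes had higher values at 10 than at 7 weeks and 2 were called higher, where 0.774% of 18869 gene models were. The median log2 fold change was 0.66, against 0.09 for all tested gene models. In that comparison 3 of 10 macrophage markers were called higher, with a sum of 778 FPKM at 10 weeks and 345 at 7 weeks, 2 of 11 fibroblast and mural markers with a sum of 390.1 at 10 weeks and 157 at 7 weeks, and 2 of 19 proximal tubule markers with a sum of 6819 at 10 weeks and 3822 at 7 weeks. Erythroid markers, 2 of 5 called higher, summed to 4622 at 10 weeks and 697 at 7 weeks, and T cell identity genes, 1 of 16 called higher, to 614 at 10 weeks and 299 at 7 weeks. Thick limb and distal markers went the other way, with 1 of 19 called lower and a sum of 6369 FPKM at 10 weeks and 19307 at 7 weeks. The part of these cell types in the rises of Havcr1 and Lcn2 was not tested.

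Over the 5 kidney groups the profiles fell into looser and tighter pairs. The likeness measure was the root mean square difference of log2(FPKM + 1) after each gene's mean over the groups was removed. Krt19 and C3 were the closest pair by this measure at 0.23, followed by Clu and Cd24 at 0.24 and Lcn2 and Vim at 0.27. Havcr1 was at least 0.62 from every other gene. The added 1 shrinks the differences of C3, at 1.59 to 6.25 FPKM, far more than those of Krt19, at 79.3 to 181 FPKM. Without it C3 spanned 3.92-fold and Krt19 2.29-fold, so part of the nearness of this pair comes from the added 1. Among 9285 gene models with a symbol and a mean of at least 5 FPKM, the profiles closest to Havcr1 were those of Hcst and Clec4a3, which encode an adaptor and a lectin receptor of leukocytes, at 0.40 and 0.41. The closest to C3 were Slc15a3 and Arrb2 at 0.06 and 0.09, to Lcn2 Fhl2 and NUPR1 at 0.11 and 0.18, and to Spp1 Psca and S100a6 at 0.07 and 0.10. For Clu they were Lyn and Alcam at 0.04 and 0.05, for Vim Lynx1 and Slc6a12 at 0.06 and 0.08, for Cd24 Agpat5 and Plod2 at 0.05 and 0.06, and for Krt19 Cmtm7 and Slc20a1, both at 0.10.

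In circulating cells most of the 8 genes were near 0, and the authors tested 17 of 40 comparisons of a gene. Havcr1, Lcn2, Krt19 and C3 were not tested in any circulating comparison, at median levels of at most 0.320 FPKM. Of the tested comparisons 4 were called, 2 for Cd24 and 1 each for Clu and Spp1. The Spp1 call has no statistic, because a group was listed at 0, and with the p from the normal distribution of the statistic 0 of the other 3 passed.

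Cd24 was called between rat types in blood on both chows. It had 2.50 FPKM in SS/CRL on HS, 2.099 in SS/CRL on LS, 0.895 in SS/MCW on HS, 0.690 in SS/MCW on LS at 10 weeks and 1.03 at 7 weeks, so that both SS/CRL groups were above all SS/MCW groups. The log2 fold change for SS/CRL over SS/MCW was 1.44 on HS (standard error 0.57, q = 0.0224) and 1.58 on LS (standard error 0.51, q = 0.0144) in the authors' deposited tables. The shares of all gene models called higher were 0.2% on HS and 0.412% on LS. The summed FPKM of 8 B cell markers stood in the same order, with 65.6 in SS/CRL on HS, 61.3 in SS/CRL on LS, 42.0 in SS/MCW on HS, 34.7 in SS/MCW on LS at 10 weeks and 45.3 at 7 weeks. Of those markers, led by Cd79b and Pax5, 5 of 8 were called higher in SS/CRL on LS and 0 of 8 on HS. Their part in the Cd24 difference was not tested.

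Clu was the gene that changed with age in blood. It had 2.66 FPKM in SS/CRL on HS, 1.55 in SS/CRL on LS, 1.98 in SS/MCW on HS, 1.61 in SS/MCW on LS at 10 weeks and 4.93 at 7 weeks. It fell by 1.56 on the log2 scale at 10 over 7 weeks (standard error 0.50, q = 0.00690, authors' deposited table), where 0.918% of gene models were called lower. The sum of 8 platelet markers stood in the same order, with 52.9 FPKM in SS/CRL on HS, 28.3 in SS/CRL on LS, 44.7 in SS/MCW on HS, 32.0 in SS/MCW on LS at 10 weeks and 120.8 at 7 weeks. Pf4, a platelet chemokine, made up 102 of those 120.8 FPKM, and 4 of 7 tested platelet markers were called lower at 10 weeks. Erythroid markers also fell in that comparison, with 3 of 4 tested called lower and a sum of 53.4 FPKM at 10 weeks and 175 at 7 weeks. The part of platelet RNA and of erythroid cells in the Clu difference was not tested.

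**Figure D5:**
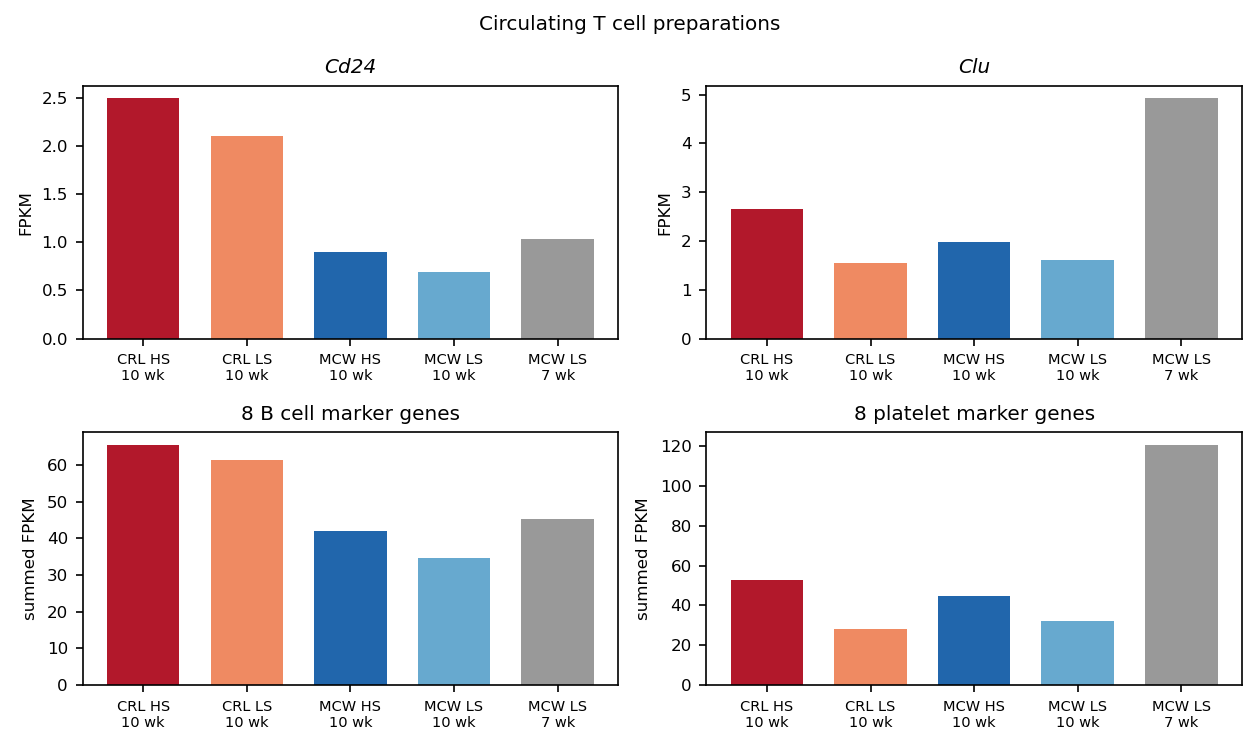
Circulating Cd24 above the sum of 8 B cell markers and circulating Clu above the sum of 8 platelet markers, in FPKM, medians over tables for the 5 groups. The bars of each gene have the same order as those of its markers, with Cd24 highest in SS/CRL on HS at 2.50 FPKM and Clu highest in SS/MCW at 7 weeks at 4.93 FPKM.

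Spp1 was listed in blood at 0.984 FPKM in SS/CRL on HS, 0.0220 in SS/CRL on LS, 0 in SS/MCW on HS, 0.0159 in SS/MCW on LS at 10 weeks and 0 at 7 weeks. On HS the authors called it higher in SS/CRL, at 0.954 FPKM, than in SS/MCW, where it was listed at 0 (q = 0.0224, authors' deposited table), and no fold change is given against 0. HS over LS within SS/CRL was not called (q = 0.537). The circulating SS/CRL group on HS was also the one in which Umod, the most abundant thick limb gene of the kidney groups, had 1.93 FPKM, in which 1 rather than 5 to 7 of 19 thick limb and distal markers was listed at 0, and in which Krt19 was not listed at 0. Lcn2 and C3, both higher in kidney than in circulating cells, went the other way, with their lowest circulating levels in this group at 0.0247 and 0.244 FPKM. The part of kidney RNA in the Spp1 value was not tested.

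Vim was high in every circulating group, with 408 FPKM in SS/CRL on HS, 324 in SS/CRL on LS, 421 in SS/MCW on HS, 331 in SS/MCW on LS at 10 weeks and 467 at 7 weeks. Its log2 fold change was 0.33 for HS over LS in SS/CRL (q = 0.365) and 0.36 in SS/MCW (q = 0.762), neither called in the authors' deposited tables. Salt gave no calls among the 8 genes in blood by Cuffdiff, with 0 of 4 tested in SS/CRL and 0 of 3 in SS/MCW, where 0.67% and 0.107% of all gene models were called in either direction. At an unadjusted p under 0.05 the counts were 3 of 4 in SS/CRL, where 9.18% of all gene models were, and 1 of 3 in SS/MCW, where 6.37% were. None of the 3 genes that could be tested for a difference between the salt effects in blood, Vim, Clu and Cd24, passed it, with p of 0.524 to 0.949. Of all 16360 gene models in that test 6 passed and 27 had p under 0.05.

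Other genes of epithelial injury and repair, 33 matched of 35, had called changes in 3 of the 5 kidney comparisons. Of all tested gene models 2.44% were called higher with salt in SS/CRL, 0.774% higher with age and 2.97% lower between rat types on HS. With salt in SS/CRL 3 of 31 tested were called higher and 0 lower, with S100a6, a small calcium-binding protein, at 1642 FPKM on HS and 931 on LS, S100a11 at 2723 on HS and 1560 on LS, and Cst3, which encodes cystatin C, at 502 on HS and 314 on LS. With age 3 of 33 were called higher and 0 lower, with S100a6 at 1502 FPKM at 10 weeks and 510 at 7 weeks, the kidney cadherin CDH6 at 8.26 at 10 weeks and 3.66 at 7 weeks, and the stress transcription factor Atf3 at 66.1 at 10 weeks and 30.2 at 7 weeks. Between rat types on HS 5 of 33 were called lower in SS/CRL and 0 higher, including Hmox1 (heme oxygenase) at 8.27 FPKM in SS/CRL and 24.1 in SS/MCW, Lgals3 (galectin-3) at 42.4 in SS/CRL and 121 in SS/MCW, and Tmsb10, an actin-binding thymosin, at 842 in SS/CRL and 2578 in SS/MCW. Tmsb10 had 7517 to 12014 FPKM in circulating groups, the highest of the list there, and the part of the T cell and macrophage genes called lower in the same comparison was not tested. Between rat types on LS, and with salt in SS/MCW, 0 of 32 and 0 of 33 were called. The median log2 fold changes of the list were 0.20 with salt in SS/CRL, 0.26 with salt in SS/MCW, -0.51 between rat types on LS, -0.35 on HS and 0.47 with age.

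Complement genes other than C3, 17 matched of 19, had called differences between rat types and with age. The shares of all tested gene models were 2.97% called lower between rat types on HS, 0.444% lower on LS and 0.774% higher with age. On HS 5 of 14 were called lower and 0 higher, with C1qb at 7.08 FPKM in SS/CRL and 32.9 in SS/MCW, C1qc at 12.0 in SS/CRL and 47.9 in SS/MCW, and C1qa at 11.0 in SS/CRL and 38.6 in SS/MCW. On LS 1 of 13 was called lower, C1qb at 5.26 FPKM in SS/CRL and 42.9 in SS/MCW. With age 2 of 15 were called higher, with C1qb at 43.4 FPKM at 10 weeks and 7.28 at 7 weeks, and with salt 0 of 11 in SS/CRL and 0 of 15 in SS/MCW were called. C1qa, C1qb and C1qc, made by macrophages, also stand on the macrophage list.

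Receptors and partners of the proteins, 17 matched of 18, had 1 of 12 called lower between rat types on HS, where 2.97% of all gene models were. In each of the other kidney comparisons 0 of 10 to 12 were called. Lists this small would hold about as few calls at the shares of all gene models given above. Itgb5, an integrin subunit that binds osteopontin, had 54.1 FPKM in kidney cells and 1.56 in circulating cells of SS/CRL rats on HS. Itga4, a subunit of a lymphocyte integrin that also binds osteopontin, had 1.01 FPKM in kidney cells and 58.4 in circulating cells of the same group. In blood Itga4 rose with age to 76.7 FPKM at 10 weeks, against 41.7 at 7 weeks (q = 0.0209, authors' deposited table), in the comparison in which Spp1 itself was near or at 0.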

How the data were processed

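RNA of circulating and kidney T cells was sequenced by the submitters in 40 libraries. Per the submitters' processing notes, the tools were cutadapt, Trim Galore 0.2.5, TopHat, TopHat2 2.1.1, Cufflinks 2.2.1 and Cuffdiff, with build rn5. How the T cells were isolated is not given in the sources used here. Per the file headers, the 15 deposited tables hold FPKM computed by the authors, 1 value per group. The authors' test statistic, a score, stands beside the deposited p-value and q-value of each gene. Library depth and its precision are unknown. Each library pooled 3 rats, so the p-values do not measure the spread between single rats.

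From the deposited FPKM, log2 fold changes were computed as kidney over circulating, HS over LS, 10 over 7 weeks or SS/CRL over SS/MCW, which reversed 1 table. No fold is given where a group is listed at 0. A gene was called at an authors' q under 0.05 with status OK. A difference between the salt effects of the rat types was tested by a z, with Benjamini-Hochberg adjustment over all gene models. Each standard error was taken as the fold change (log2) over its statistic. A run on simulated data took these standard errors as true, so it does not check their size. The 8 genes and the other lists were chosen with earlier results of these data known. Named beside the 8 genes were up to 3 called genes per list and comparison with the largest change and at least 5 FPKM, not all of which are printed, the top genes of marker lists and the 2 closest profiles per gene. Promoters came from RefSeq, build GRCr8. The alternatives were a q under 0.01, at least 1 FPKM, a normal p with and without recentring, a pseudocount of 1, standard errors from the deposited p and at least 5 FPKM. The software was matplotlib 3.10.9, scipy 1.17.1, numpy 2.4.6 and pandas 2.3.3 under Python 3.11.15.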

Additional observations from a re-analysis of the deposited data

How the results depend on the processing

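The count of genes called higher in kidney cells was 29 and lay between 25 and 29 under the 4 alternatives. With the normal p the 6 calls with a circulating value of 0 dropped out for want of a statistic and 3 differences were newly called. The count called lower was 3, was 2 with a normal p of the deposited statistic and 1 when recentred on the median. Between kidney groups 9 calls became 7 at a q under 0.01, and 0 with the normal p, also when recentred. Between circulating groups 4 calls became 1 at a q under 0.01, and 0 with the normal p, also when recentred, 1 of the 4 having no statistic. The loss is general, since salt in SS/CRL kidney cells gave 1130 calls by the authors' q, 44.2% of them higher, 17 with the normal p and 18 when recentred, 5.56% of them higher. None of the 8 genes changed direction under any alternative run. Of 90 comparisons of a gene with a fold, a pseudocount of 1 moved 21 by more than the standard error. None of the 8 genes passed the test of a difference between salt effects under any alternative run. In kidney cells 0 of all gene models passed with standard errors from the statistic, and 60 with those from the deposited p. No paired analysis was possible because the tables hold 1 value per group. For the same reason no library could be left out in turn, and differences between libraries were not examined.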
